A study of Mus musculus with 8 samples.

Results

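Vwf encodes von Willebrand factor, and it is the marker by which the 2 groups of sorted cells in this study were told apart. The accessible regions at the gene were taken as all peaks overlapping position 125485000 to 125640000 of mouse chromosome 6 (mm9), a window that holds a gene body of about 125496800 to 125636700 and the sequence before it. The window was set by position alone, and 23 of 134473 peaks lay in it. Of these 23, 22 had enough counts to be tested.

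Open chromatin was measured by Omni-ATAC-seq, in which the Tn5 transposase cuts accessible DNA and leaves sequencing adapters there. Each of the 8 libraries was made from 500 cells sorted from the bone marrow of C57BL/6 adults, 8 to 12 weeks of age. All cells carried the surface phenotype of MPP2, a multipotent progenitor with a bias toward platelets and red cells: Lineage-negative, Sca1-positive and Kit-positive (LSK), without Flt3, and with CD150 and CD48. One group of 4 libraries was Vwf+Gata1+ and the other group of 4 was Vwf-Gata1+, so that Gata1, a transcription factor of the megakaryocyte and erythroid lineages, was shared and Vwf separated them. They are called Vwf+ and Vwf- cells below, and both are Gata1+. The labels do not say how Vwf and Gata1 were detected in the sort, whether the mice carried a reporter, or whether each library had its own animals. The p-values thus rest on the spread between libraries, which may be technical.

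Von Willebrand factor is a large secreted glycoprotein that tethers platelets to damaged vessel walls and carries coagulation factor VIII. It is made by megakaryocytes and endothelial cells and stored in platelet alpha granules and endothelial Weibel-Palade bodies. In mouse bone marrow, Vwf also marks stem and progenitor cells that are biased toward platelets. An open region at such a gene can be a promoter or an enhancer, and accessibility alone does not say which gene it acts on or how much RNA is made.

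The Vwf window was open in both groups. Across the 23 peaks, the summed signal was 349 ± 14.1 CPM (the count of a peak scaled to library size) in Vwf+ cells and 326 ± 7.15 CPM in Vwf- cells (SD, n = 4 each), a ratio of 1.07. No peak of the window passed the adjusted threshold. The nearest to it was a peak 37.2 kb inside the gene, at 1.42-fold higher signal in Vwf+ cells. The 2 strongest peaks of the gene had almost equal signal in both groups.

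In each library the window took a similar, small part of all counts. Totals in peaks ran from 4628997 to 7753538 per library, of which 1580 to 2498 fell in the window. That share was 0.0322%, 0.0331%, 0.0341% and 0.034% for replicates 1 to 4 of Vwf+ cells, and 0.0319%, 0.0327%, 0.0304% and 0.0314% for replicates 1 to 4 of Vwf- cells. The ranges of the groups overlapped. The exact binomial intervals at 95%, which cover counting error only, were 0.031% to 0.0335% for the lowest Vwf+ library and 0.0314% to 0.0341% for the highest Vwf- library.

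The peaks were crowded at the 5' end. Distances are given from the gene start used here to the centre of a peak, with negative values before the gene. Of the 23 peaks, 4 lay before the gene, between -7.11 and -4.64 kb, and 15 in the first 70 kb of the gene body. The remaining 70 kb held 4 peaks, and the widest stretch without a peak was 20.5 kb. No peak lay within 1000 bp of the gene start used here, and none after the gene end. That start is approximate: the gene body used here spans 139901 bp, while the RefSeq model of Vwf in the GRCm38.p6 assembly is 133732 bp long. If both end at the same place, the shorter model would start near the peak at 6.16 kb, and the peaks at 1.86 and 3.39 kb would lie before it. This was not checked in mm9, so which peak holds a transcript start was not settled, and all distances and the division into peaks before and inside the gene depend on the start used. Peaks were not assigned to exons or introns. The protein-coding neighbours of Vwf in that assembly were Cd9 on the 5' side and Ano2 on the 3' side.

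Most of the signal came from a few wide peaks. Peak widths ran from 207 to 1656 bp with a median of 374 bp, and 5 peaks were wider than 900 bp. The 5 strongest peaks held 74.6% of the 16918 counts in the window over all libraries, and the strongest alone held 28%. These 5 were at -5.56, 18.4, 26.4, 37.2 and 57.2 kb.

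**Figure D1:**
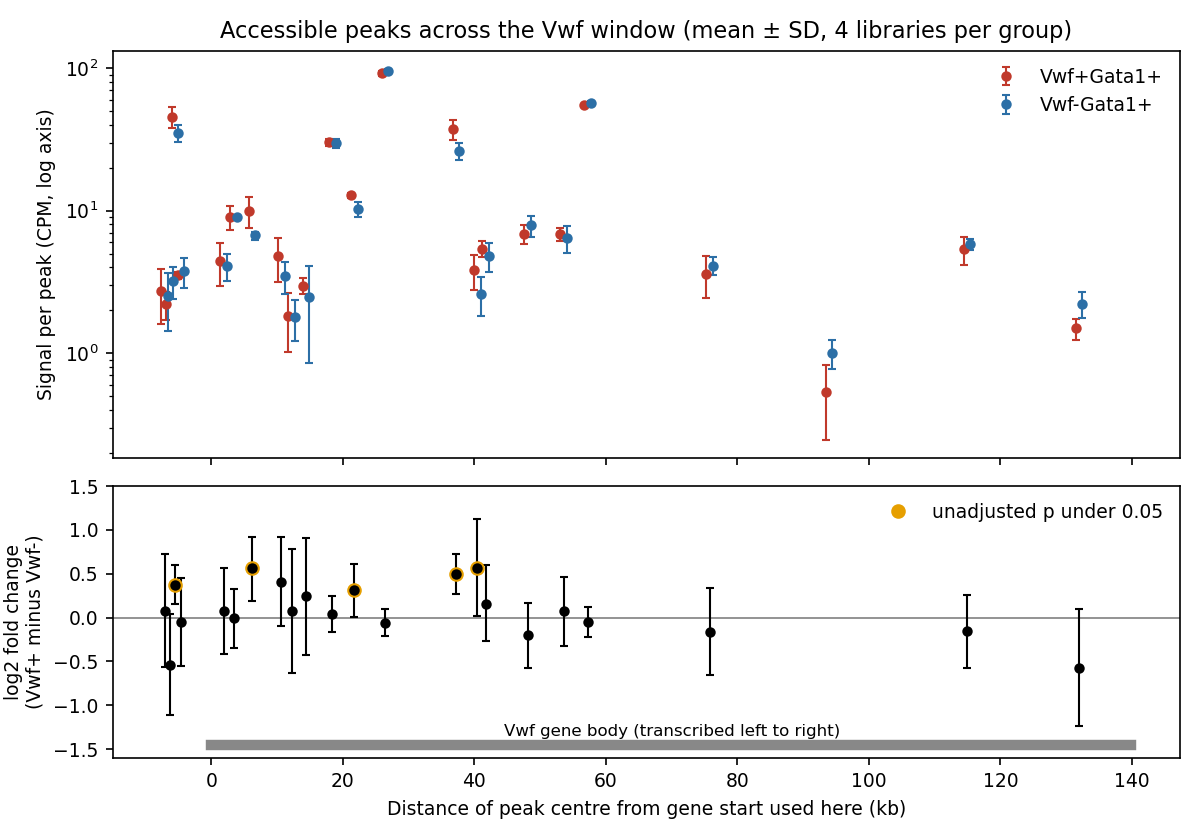
The upper panel plots the signal of each of the 23 peaks (CPM, log axis) as mean ± SD of 4 libraries per group against the distance of its centre from the gene start used here (kb), with the groups set slightly apart. The lower panel plots the log2 fold change with its 95% interval for the 22 tested peaks. The 5 peaks at an unadjusted p under 0.05 lie between -5.56 and 40.5 kb, and the 3 tested peaks beyond 70 kb lie below 0.

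The strongest peak of the gene did not separate the groups. It lay at 26.4 kb (125522344 to 125523999), was also the widest of the window at 1656 bp, and exceeded 99.6% of all tested peaks in mean signal. Its signal was 92.5, 93.6, 87.1 and 94.5 CPM in replicates 1 to 4 of Vwf+ cells and 96.4, 93.3, 98.7 and 94.3 CPM in replicates 1 to 4 of Vwf- cells. The 2 ranges overlapped. The fold difference was 0.962, with a 95% interval of 0.862 to 1.07 (edgeR adjusted p = 0.946). A difference of 1.5-fold in either direction was outside that interval.

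The second strongest peak, at 57.2 kb (125553200 to 125554820), was equally even. It had 54.5, 54.2, 55.9 and 55.8 CPM in Vwf+ cells and 55.3, 59.4, 57.5 and 56.6 CPM in Vwf- cells. The highest Vwf+ library lay above the lowest Vwf- library, so the groups overlapped. The fold difference was 0.964, with a 95% interval of 0.858 to 1.08 (edgeR adjusted p = 0.954). Per length the 26.4 kb peak was the more accessible of the pair, with 55.5 against 34 CPM per kb in Vwf+ cells and 57.8 against 35.3 CPM per kb in Vwf- cells.

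Of the 22 tested peaks, 0 were called by edgeR at an adjusted p under 0.05 (quasi-likelihood test, adjusted over all tested peaks). Of all tested peaks, 0.0134% were called with higher and 0.00103% with lower signal in Vwf+ cells, 0.0144% in all. DESeq2 also called 0 of the window. Among all 97040 peaks in its fit, it called 11 with higher and 0 with lower signal. Limma-voom with quality weights called 0 anywhere, so neither count of 0 in the window is particular to Vwf. At an unadjusted p under 0.05, 5 window peaks had higher signal in Vwf+ cells and 0 had lower signal with edgeR, where 3.52% and 3.20% of all tested peaks did. DESeq2 gave 3 and 0, where 1.97% of all tested peaks had higher signal at that p. Limma-voom gave 5 and 0, where 3.81% did. The share of all tested peaks with lower signal was not derived for these fits. Of the 22, 13 (59.1%) had a log2 fold change above 0, where 50.7% of all tested peaks did. The median log2 fold change was 0.07 in the window and 0 over all tested peaks. The window was chosen with earlier results of these data known, so these counts are a description.

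The peak at 37.2 kb (125533495 to 125534555, 1061 bp wide) had the lowest p of the window and ranked 67 among the 97040 tested peaks. Its signal was 29.2, 39, 43.5 and 38.1 CPM in replicates 1 to 4 of Vwf+ cells and 21.6, 29.7, 25.2 and 28.3 CPM in replicates 1 to 4 of Vwf- cells. Replicate 1 was the lowest library of both groups, and replicate 1 of Vwf+ cells lay just below the highest Vwf- library. The means were 37.5 ± 5.99 and 26.2 ± 3.61 CPM (SD, n = 4 each). The log2 fold change was 0.50 ± 0.11 (SE; edgeR unadjusted p = 7.81e-05, adjusted p = 0.113). The 95% interval of the fold ran from 1.21 to 1.66. Without replicate 1 of Vwf+ cells, the log2 fold change was 0.62 and the peak passed the threshold (edgeR adjusted p = 0.00849). That fit called 0.0758% of all tested peaks. It leaves out the lowest Vwf+ library, which by itself raises the fold change. With any other single library left out, the peak did not pass (edgeR adjusted p from 0.156 to 0.364). Over the 15 settings other than the main one, the 37.2 kb peak passed in 3, with edgeR adjusted p from 0.000188 to 0.364 at the extremes.

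A wide peak before the gene followed a like pattern over the libraries. It lay at -5.56 kb (125490694 to 125491788, 1095 bp wide) and was the third strongest of the window. Its signal was 34.6, 51, 50 and 46.9 CPM in Vwf+ cells and 29.1, 39.7, 37.8 and 33.9 CPM in Vwf- cells. Replicate 1 was again the lowest of both groups, and the other 3 Vwf+ libraries lay above all 4 Vwf- libraries. The log2 fold change was 0.37 ± 0.11 (SE; edgeR unadjusted p = 0.00192, adjusted p = 0.368), with a 95% interval of the fold from 1.11 to 1.51. Without replicate 1 of Vwf+ cells, again the lowest Vwf+ library, it was 0.49 and the peak passed the threshold (edgeR adjusted p = 0.037). That fit called 0.0758% of all tested peaks. With any other single library left out, the peak did not pass (edgeR adjusted p from 0.351 to 0.699). Over the 15 settings other than the main one, the -5.56 kb peak passed in 2. Its adjusted p there ran from 0.00382 (edgeR with the replicate number as a block) to 0.898 (DESeq2). The other 3 peaks before the gene were weak, with group means of 2.2 to 3.74 CPM, and their log2 fold changes were 0.08, -0.54 and -0.05 from the most distant to the nearest.

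The peak at 6.16 kb (125502682 to 125503240, 559 bp wide), which may lie at the start of the shorter gene model, had 10.4, 7.69, 13.3 and 8.63 CPM in Vwf+ cells and 6.8, 6.92, 6.05 and 7.01 CPM in Vwf- cells. Every Vwf+ library lay above every Vwf- library. The Vwf+ libraries were also the more spread, with an SD of 2.46 CPM against 0.439 CPM. The log2 fold change was 0.56 ± 0.18 (SE; edgeR unadjusted p = 0.00374, adjusted p = 0.445), with a 95% interval of the fold from 1.14 to 1.89. The 2 peaks between it and the gene start used here, at 1.86 and 3.39 kb, had log2 fold changes of 0.08 and -0.01.

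The other peaks at an unadjusted p under 0.05 were a peak at 21.7 kb (125518370 to 125518728) and a narrow one at 40.5 kb (125537139 to 125537371). The 21.7 kb peak had 12.2, 13.1, 13.3 and 12.4 CPM in Vwf+ cells and 10.5, 9.84, 8.78 and 11.7 CPM in Vwf- cells. Its groups did not overlap, and its log2 fold change was 0.31 ± 0.15 (SE; edgeR adjusted p = 0.731). The 40.5 kb peak had 3.82, 3.19, 2.98 and 5.32 CPM in Vwf+ cells and 2.35, 2, 2.34 and 3.79 CPM in Vwf- cells. Replicate 4 of Vwf- cells lay above 2 of the Vwf+ libraries, and the log2 fold change was 0.57 ± 0.27 (SE; edgeR adjusted p = 0.73). It was 0.36 without replicate 4 of Vwf+ cells (edgeR unadjusted p = 0.242), and it stayed at an unadjusted p under 0.05 in 7 of 15 other settings, as the 21.7 kb peak did in 5 of 15. Across the 22 tested peaks, the groups did not overlap at 2 with higher signal in Vwf+ cells, where 1.81% of all tested peaks did so, and at 1 with lower signal, where 2.07% did.

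**Figure D2:**
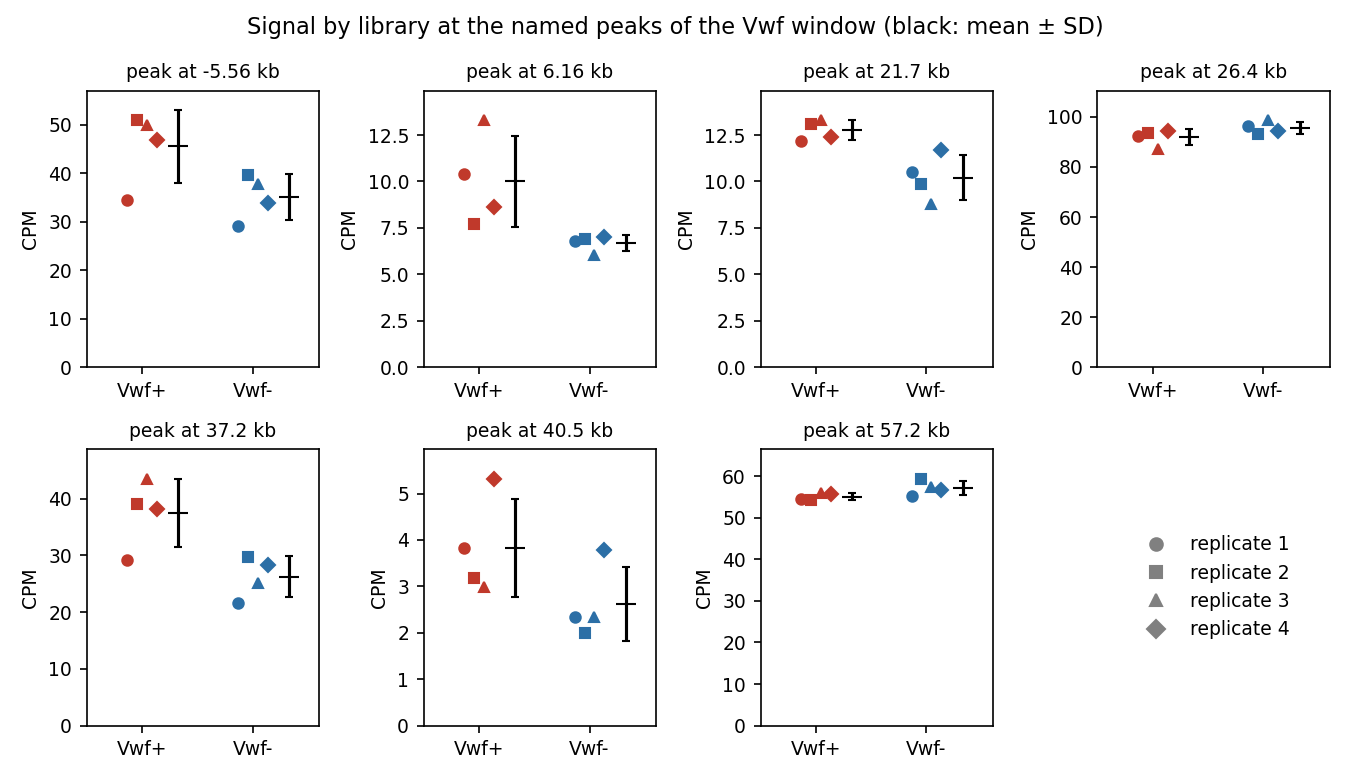
Each panel plots the signal (CPM, axes from 0) of 1 named peak of the Vwf window in the 4 libraries of each group, with marker shapes for replicate numbers and the mean ± SD in black. Replicate 1 is the lowest library of both groups at -5.56 and 37.2 kb, and the panels at 26.4 and 57.2 kb show overlapping groups.

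Relative signal within the window was also examined without any scaling of libraries, by dividing the counts of a peak by those of the 26.4 kb peak in the same library. For the 37.2 kb peak this ratio was 0.316, 0.417, 0.5 and 0.403 in Vwf+ cells and 0.224, 0.318, 0.255 and 0.3 in Vwf- cells. The lowest Vwf+ library (0.316) lay just below the highest Vwf- library (0.318), and the other 3 Vwf+ libraries lay above all 4 Vwf- libraries. For the 57.2 kb peak it was 0.6 ± 0.0283 and 0.598 ± 0.0276 (SD, n = 4 each). For the -5.56 kb peak it was 0.497 ± 0.0879 and 0.367 ± 0.0513, and for the 6.16 kb peak 0.11 ± 0.0313 and 0.07 ± 0.00611. The divisor also varied: the 26.4 kb peak had a fold difference of 0.962 and a correlation of -0.73 with the 37.2 kb peak. A ratio thus reflects both of its peaks. These ratios were chosen after the values were seen and were not tested.

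**Figure D3:**
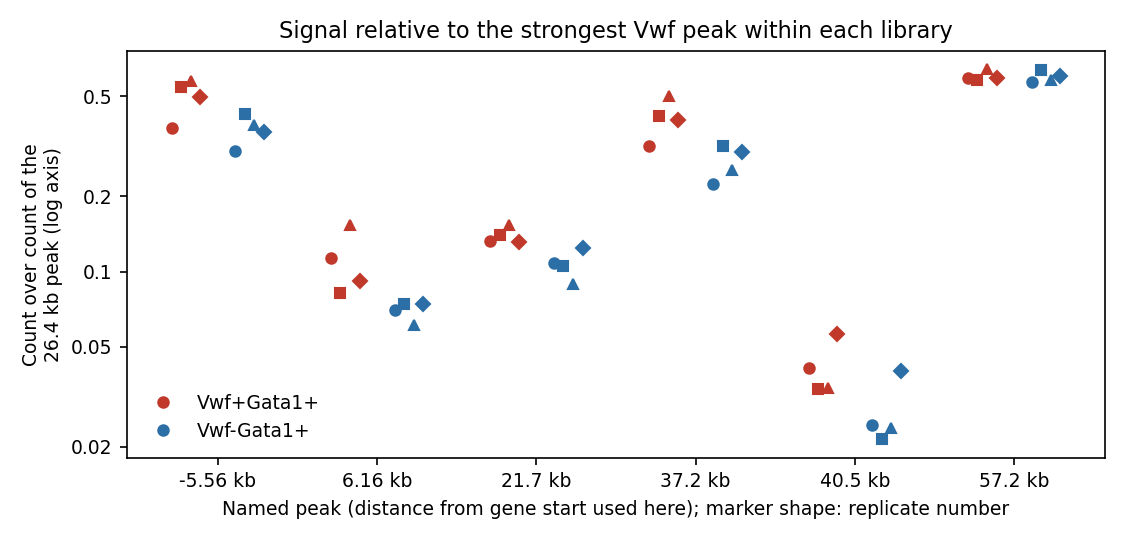
Each point is the count of a named peak over the count of the 26.4 kb peak in the same library (log axis), with colour for the group and marker shape for the replicate number. At 57.2 kb both groups lie near 0.6, while at 37.2 kb the means are 0.409 and 0.274.

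The other 16 peaks of the window included 15 that were tested. Of these, 8 had a log2 fold change above 0 and 7 below, from -0.57 to 0.41, and the lowest unadjusted p was 0.0663 (edgeR). The strongest of them, at 18.4 kb (125514732 to 125515689), had 30.3 ± 1.67 CPM in Vwf+ cells and 29.6 ± 2.29 CPM in Vwf- cells (SD, n = 4 each). The 95% interval of its fold difference was 0.894 to 1.18. For 19 of the 22 tested peaks the 95% interval lay within 2-fold in either direction, as it did for 85.6% of all tested peaks. Among the 15 tested peaks above, standard errors of the log2 fold change ran from 0.1 to 0.35. Small differences at the weak peaks may thus have been missed, and no limit of detection was derived.

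The sign of the difference was then compared along the gene, a split chosen after the values were seen and not tested. In the first 70 kb of the gene body, 11 of 15 tested peaks had a log2 fold change above 0, with a median of 0.08 and a range of -0.2 to 0.57. Beyond 70 kb, 0 of 3 tested peaks did, with a median of -0.16. Of all tested peaks, 50.7% had a log2 fold change above 0, with a median of 0. The last peak, at 132 kb (125628570 to 125628924), had 1.19, 1.69, 1.38 and 1.73 CPM in Vwf+ cells and 1.96, 2.92, 1.95 and 2.04 CPM in Vwf- cells. Every Vwf- library was the higher there, but counts were low and the log2 fold change was -0.57 ± 0.33 (SE; edgeR unadjusted p = 0.0913, adjusted p = 0.798). The 1 peak too weak to be tested lay at 93.9 kb, with 2 to 4 counts per library in Vwf+ cells and 4 to 10 in Vwf- cells. Summed over the 4 peaks beyond 70 kb, the signal was 11 ± 1.94 and 13.2 ± 1.41 CPM, against 284 ± 8.67 and 268 ± 4.16 CPM over the 15 peaks before.

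Signal was also summed by region. The 4 peaks before the gene had 44, 58.5, 58.4 and 55.4 CPM in Vwf+ cells and 39.9, 49.5, 47 and 42 CPM in Vwf- cells. Replicate 1 was the lowest of both groups, and the groups overlapped. The 19 gene body peaks had 285, 292, 304 and 298 CPM against 280, 287, 276 and 283 CPM, and overlapped as well. Without the 26.4 kb peak, the log2 ratio of the summed window signal was 0.16 in place of 0.10. In bulk libraries, a higher signal from more cells with an open region and a higher signal from each cell cannot be told apart.

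Windows of equal length on either side served as a comparison. The 5' flank, on the side of Cd9, held 41 peaks with 255 ± 14.2 CPM in Vwf+ cells and 250 ± 10.9 CPM in Vwf- cells (SD, n = 4 each). Of its 31 tested peaks, 16 (51.6%) had a log2 fold change above 0, where 50.7% of all tested peaks did, and the median was 0. At an unadjusted p under 0.05 (edgeR), 2 had higher and 0 had lower signal, where 3.52% and 3.20% of all tested peaks did. Its log2 fold changes ran from -0.56 to 0.9, against -0.57 to 0.57 in the window. The 3' flank, on the side of Ano2, held 4 peaks, of which 1 was tested, and its summed signal was 5.49 ± 2.17 and 4.41 ± 1.03 CPM. The difference between the window and its flanks was not tested.

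**Figure D4:**
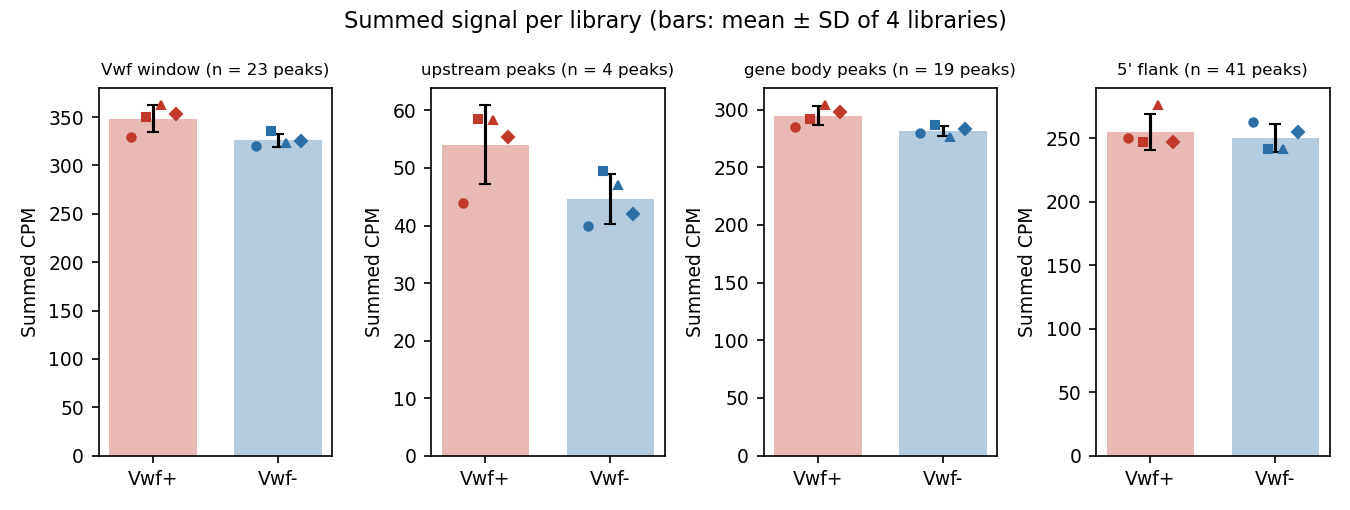
Bars give the mean ± SD of the summed signal (CPM, axes from 0) of 4 libraries per group, and points give single libraries with marker shapes for replicate numbers as in the plots of single peaks. The panels show the 23 peaks of the Vwf window, the 4 before the gene, the 19 of the gene body and the 41 of the 5' flank.

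Peaks with the most similar pattern to the 37.2 kb peak were sought over the 8 libraries by the Pearson correlation of log2 CPM, as a description. Outside the window the nearest were on chromosome 6 (72578554 to 72578942, r = 0.99), chromosome 12 (114044250 to 114044657, r = 0.984) and chromosome 3 (139782956 to 139783238, r = 0.984). None of these 3 passed the threshold (edgeR adjusted p = 0.638, 0.0846 and 0.657). Within the window the -5.56 kb peak was the most similar, with r = 0.93, followed by the 21.7 kb peak with 0.76 and the 6.16 kb peak with 0.69. The 26.4 kb peak had the lowest value, -0.73. Of 97018 peaks outside the window, 308 (0.317%) had a correlation of 0.9 or more, and all of these values share the 8 libraries and their difference between groups.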

How the data were processed

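The authors deposited 1 table of raw counts per peak for the 8 libraries. The submitters' processing notes name mm9 as the build, and as tools MACS2, Bowtie2, Picard, SAMtools, FastQC and Trim Galore, without versions. Their settings, any shift of read ends for the transposase, the treatment of duplicates and the merging of peaks are not given in the sources used here. Window peaks were taken by their position in the table. All peaks kept by filterByExpr (minimum count 10, minimum total 15) were scaled by TMM and tested by quasi-likelihood in edgeR (robust option), with Benjamini-Hochberg adjustment over all 97040. Fold changes are Vwf+ over Vwf-, and CPM is after TMM scaling. Log2 CPM for correlations had a prior count of 2. The test was also run on simulated counts drawn independently for each library. That simulation held no effect shared by same-numbered libraries, and its outcome is not reported here. Values for every library and a test are given for the 3 strongest peaks, the widest and those at an unadjusted p under 0.05, 7 in all. The values by library at 132 kb were added after they were seen. The window, lists and tests were chosen with earlier results of these data known. Sequences, motifs and marker genes were not analysed here. Alternatives were other scalings, no filter, DESeq2, limma-voom, a replicate block, a narrower window and each library left out. The software was edgeR 4.0.16, DESeq2 1.42.0 and limma 3.58.1 in R 4.3.3, with figures by matplotlib 3.10.9 in Python 3.11.15.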

Additional observations from a re-analysis of the deposited data

Results flagged for a closer look

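In 52 groups of 4 values examined (each window peak and the summed signal of the window and its flanks, in each group), 2 held a library far from the other 3 by Dixon's criterion, and chance flags about 1 in 20. At the 132 kb peak, replicate 2 of Vwf- cells had 2.92 CPM and the other 3 had 1.95 to 2.04 CPM. In the 5' flank, replicate 3 of Vwf+ cells had a summed signal of 276 CPM and the other 3 had 247 to 250 CPM. That library was the shallowest, and its part in these values was not tested.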

How the results depend on the processing

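No log2 fold change of the 7 named peaks reversed in any of 15 other settings each. The number of window peaks past the adjusted threshold, 0 with higher and 0 with lower signal, was 0 to 2 higher and 0 to 0 lower with 1 library left out. It reached 2 without replicate 1 of Vwf+ cells (the peaks at -5.56 and 37.2 kb), where 0.0758% of all tested peaks passed. With any other single library left out it was 0. At an unadjusted p under 0.05, 5 window peaks were higher and 0 lower in the main fit, where 3.52% and 3.20% of all tested peaks were. With 1 library left out these numbers were 3 to 6 higher and 0 to 1 lower. Of all tested peaks, 2.96% to 4.23% were higher at that p in those fits. The share that was lower was not derived for them. With total count scaling and with DESeq2, 3 window peaks were higher, where 3% and 1.97% of all tested peaks were. Without replicate 1 of both groups, chosen after seeing the data, 1 window peak with higher signal passed the threshold, at 37.2 kb (edgeR adjusted p = 0.0444), where 0.0379% of all tested peaks passed, and 3 were higher at an unadjusted p under 0.05, where 3.64% were. The adjusted p of the 37.2 kb peak ran from 0.000188 to 0.364 over its settings, and its log2 fold change from 0.41 to 0.62. With the replicate number as a block, 2 window peaks with higher signal passed, at 37.2 kb (edgeR adjusted p = 0.000188) and -5.56 kb (0.00382), where 0.527% of all tested peaks passed. The labels give no meaning to a shared number. Same-numbered libraries deviated together with correlations of 0.301, 0.163, 0.074 and 0.0103 for numbers 1 to 4. All were above 0, and those of numbers 3 and 4 were under 0.1. Of the 8 libraries, 5 were most like their own number, which comes from the data and not from the design. The number that chance would give was not derived, and whether same-numbered libraries form pairs was not settled. The log2 ratio of the summed window signal, 0.10, was 0.16 without the strongest peak, and 0.08 to 0.13 with 1 library left out. The causes were not tested.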
